A study of Mus musculus with 36 samples.

Results

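The 40 genes described here make, remove and read cyclic AMP in the cell, and their acetylation was followed in the dorsal hippocampus of mice given ethanol, with and without knockdown of the acetyl-CoA synthetase Acss2. They comprise 10 adenylyl cyclases, 6 subunits of protein kinase A (PKA), 3 anchoring proteins of PKA, 13 phosphodiesterases, 6 CREB-family factors and coactivators, and 2 Epac exchange factors. The genes were chosen by name as members of the pathway, though with earlier results of these data known. All 40 were found among 21887 protein-coding genes of the mouse. In the control vector, ethanol went with narrower coverage by acetylation of histone H3 at lysine 9 (H3K9ac) in 36 of the 39 genes that had any, the 13 phosphodiesterases among them. With Acss2 knocked down, ethanol went with wider H3K9ac coverage in 29 of 39. Most protein-coding genes with H3K9ac moved the same way, with 12.2% having more with ethanol in the control vector and 63.9% in the knockdown. When each peak list was scaled to its own size, 17 of 39 members (43.6%) had more H3K9ac coverage with ethanol in the control vector, against 56.9% of all genes, and 1 of the 13 phosphodiesterases had more.

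ChIP-seq was carried out for H3K9ac and for acetylation of lysine 27 (H3K27ac), with input chromatin, in 36 samples that form 12 groups of 3 replicates. The 4 conditions were ethanol with Acss2 knockdown, no treatment with Acss2 knockdown, ethanol with the control vector, and no treatment with the control vector. Ethanol was given into the peritoneum at 2 g per kg as a 20% solution, and the labels name no saline injection for the untreated mice. The authors deposited 1 peak list for each mark and condition, 8 in all, so there was no replicate value, no error and no test for any comparison below.

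All mice were males aged to 8 weeks, and the labels give neither a strain nor the time between injection and dissection. Both vectors were injected into the dorsal hippocampus. The knockdown vector was an adeno-associated virus in which the U6 promoter drives the hairpin against Acss2 and the CMV promoter drives a green fluorescent protein, and neither promoter restricts expression to 1 cell type. The contents of the control vector are not described in the labels. Acetylation was measured in the dissected tissue, so transduced and other cells are pooled, and fewer cells of a type cannot be told apart from less acetylation per cell. The lists hold no RNA values, so the loss of Acss2 itself was not checked.

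Cyclic AMP is made from ATP by adenylyl cyclases, which are switched on or off by G-protein subunits and, for some forms, by calcium with calmodulin. It binds the regulatory subunits of PKA and frees the catalytic subunits, which phosphorylate targets that include the transcription factor CREB, and phosphodiesterases end the signal by hydrolysing cyclic AMP or cyclic GMP. In the hippocampus this cascade is known for its part in lasting synaptic strengthening and in the formation of long-term memory. Acss2 makes acetyl-CoA from acetate, which the liver produces from ethanol, and acetyl-CoA is the donor for histone acetylation. H3K9ac marks mainly active promoters, and H3K27ac marks active promoters and enhancers.

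The quantity used throughout is the number of bases of a gene's locus that lie inside peaks, called covered bases, where the locus runs from 2 kb below to 2 kb above the gene. It is a width and not a height of the signal. A gene is called higher or lower between 2 lists when its covered bases, with 100 bp added to each, differ at least 1.5-fold (0.58 on the log2 scale) and at least 1 of the lists covers 200 bp. A list of more reads can cover more bases with no change in acetylation, and the depth of the lists is unknown.

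Promoters of 4 members are printed, 3 because H3K9ac around their start sites fell or grew most with ethanol in the control vector and 1 because of a CREB motif. Each is the 250 bases before an annotated start site, from RefSeq on GRCm38.p6, read 5′ to 3′ on the strand of the gene. Pde4b and Pde2a hold the start sites around which H3K9ac coverage fell furthest with ethanol in the control vector, and Akap7 holds the one around which it grew most. Prkar1a, which encodes a regulatory subunit of PKA, was the only 1 of the 35 members with annotated starts whose 250 bases before a start held the full cyclic AMP response element TGACGTCA. These 4 were chosen after their values were seen. Capitals mark TGACGTCA and the GC box GGGCGG, each searched on both strands.
Pde4b, chr4:102589593-102589842 (+ strand): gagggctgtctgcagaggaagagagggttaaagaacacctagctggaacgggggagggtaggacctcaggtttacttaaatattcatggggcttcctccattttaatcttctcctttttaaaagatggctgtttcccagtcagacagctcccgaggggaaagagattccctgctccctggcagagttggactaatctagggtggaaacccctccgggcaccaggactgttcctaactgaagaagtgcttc
Pde2a, chr7:101451002-101451251 (+ strand): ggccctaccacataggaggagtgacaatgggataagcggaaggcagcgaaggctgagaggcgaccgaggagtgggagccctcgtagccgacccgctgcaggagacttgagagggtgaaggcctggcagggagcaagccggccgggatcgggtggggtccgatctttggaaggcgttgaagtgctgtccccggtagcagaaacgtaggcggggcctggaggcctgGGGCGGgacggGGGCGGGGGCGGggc
Akap7, chr10:25297080-25297329 (- strand): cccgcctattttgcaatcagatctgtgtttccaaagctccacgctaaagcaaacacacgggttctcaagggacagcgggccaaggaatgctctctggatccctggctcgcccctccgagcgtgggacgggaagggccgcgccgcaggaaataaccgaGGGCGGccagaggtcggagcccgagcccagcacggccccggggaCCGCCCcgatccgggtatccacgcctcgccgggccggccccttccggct
Prkar1a, chr11:109650699-109650948 (+ strand): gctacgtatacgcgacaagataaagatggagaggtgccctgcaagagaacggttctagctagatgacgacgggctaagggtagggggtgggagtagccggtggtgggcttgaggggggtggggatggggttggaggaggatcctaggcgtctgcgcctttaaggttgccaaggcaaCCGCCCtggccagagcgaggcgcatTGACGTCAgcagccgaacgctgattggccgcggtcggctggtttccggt

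The Pde4b promoter held neither motif, had a GC content of 50.8% and 3 CpG dinucleotides. The Pde2a promoter held 3 GC boxes in a GC content of 68.0%, with 19 CpG dinucleotides. The Akap7 promoter held 2 GC boxes, at a GC content of 67.2% with 25 CpG dinucleotides. In Prkar1a the response element began 49 bases before the start site and 1 GC box lay further upstream, on the opposite strand. A match in these letters is a description of the sequence and not evidence of binding.

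Within 1 kb of the printed Pde4b start, H3K9ac covered 394 bp with ethanol and 1579 bp untreated in the control vector, and 1680 bp with ethanol and 1396 bp untreated in the knockdown. Around the printed Pde2a start it covered 471 bp with ethanol and 1515 bp untreated in the control vector, and 1709 bp with ethanol and 1700 bp untreated in the knockdown. The ethanol list of the control vector is the low one of the 4 at both starts. H3K27ac stayed wide at the same places, at 1170 bp with ethanol and 1439 bp untreated around the Pde4b start in the control vector, and 1405 bp with ethanol and 1496 bp untreated around the Pde2a start.

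Around the printed Akap7 start, H3K9ac covered 1091 bp with ethanol and 876 bp untreated in the control vector, and 1523 bp with ethanol and 1215 bp untreated in the knockdown. Around the Prkar1a start that holds the response element, it covered nearly the whole window of 2001 bp in every list, at 1980 bp with ethanol and 1997 bp untreated in the control vector and 2001 bp in both knockdown lists.

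Start sites were annotated for 35 of the 40 members, 73 starts in all, and Adcy6, Adcy8, Crem, Crtc2 and Pde7a are not covered by this account. The full element TGACGTCA stood before 1 of the 73 starts (1.37%), against 1.92% of the 21263 starts of all protein-coding genes. Its 5-base core TGACG, which the full element also contains, stood before 14 of 73 (19.2%), against 20.2% of all starts. The GC box stood before 31 of 73 (42.5%), against 42.6% of all starts. Counted per gene, the core stood before a start of 12 of the 35 members (34.3%), against 22.6% of genes, and the GC box before a start of 24 (68.6%), against 45.8% of genes. The members have more annotated starts per gene, at 73 starts for 35 members against 21263 starts for 17492 genes.

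A start with an H3K9ac peak within 1 kb in all 4 lists was found for 29 of the 35 members (all genes: 56.6%), and with an H3K27ac peak for 30 (all genes: 60.6%). These counts per gene are also open to the larger number of starts per member. Counted per start, H3K9ac was there in all 4 lists at 54 of 73, against 11876 of 21263 for all genes. For H3K27ac it was 59 of 73, against 12927 of 21263. The annotated starts of Adcy4, Adcy7, Adcy10, Pde4c and Pde4d included none with a peak in all 4 lists for either mark, and the same held for Pde1a with H3K9ac. Starts with H3K9ac in all 4 lists were richer in GC, with a median of 66.0% over 300 bases around 54 starts, against 51.3% for the 13 starts with no H3K9ac peak in any list. The same difference held in all genes, at 62.3% and 47.0%.

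In untreated control mice the amount of coverage differed widely between members. Per kb of locus, the most H3K9ac-covered cyclase was Adcy6, at 71.8 bp, and the most covered PKA gene was Prkaca, which encodes a catalytic subunit, at 151 bp per kb. Crtc2, a coactivator of CREB, had 148 bp per kb, Rapgef3, which encodes Epac1, had 108 bp per kb, and Akap5, an anchoring protein of the postsynaptic density, had 94.2 bp per kb. Pde4a led the phosphodiesterases, at 85.9 bp per kb. At the other end stood Adcy10, the soluble cyclase, which had no H3K9ac peak in any list, and Pde1a, a calcium-dependent phosphodiesterase, at 1.49 bp per kb.

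The least H3K9ac-covered of the other roles were Rapgef4, which encodes Epac2, at 5.37 bp per kb, Akap6 at 7.10 bp per kb, Prkar2b at 12.5 bp per kb and Crtc3 at 19.6 bp per kb. For H3K27ac, the most covered in untreated control mice were Rapgef3 at 235 bp per kb, Crtc2 at 226 bp per kb, Pde4a at 181 bp per kb, Prkaca at 173 bp per kb, Adcy6 at 86.2 bp per kb and Akap5 at 81.4 bp per kb. The least covered in each role were Pde1a at 1.46 bp per kb, Adcy7 at 2.90 bp per kb, Prkar2b at 14.9 bp per kb, Akap6 at 19.05 bp per kb, Rapgef4 at 20.5 bp per kb and Creb1, which encodes CREB itself, at 32.1 bp per kb. The members are long genes, with a median of 92.2 kb against 17.2 kb for all protein-coding genes, and the sparsely covered ones include some of the longest.

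Some covered bases cannot be assigned to 1 gene. All bases of Adcy4 lay within loci shared with Ltb4r1 and Ripk3, and 99.8% of the H3K9ac bases of Crtc2 lay within loci shared with Slc39a1 and Dennd4b. For H3K9ac the shared part was 83.5% in Pde1b, 48.8% in Prkar1b and 37.6% in Prkaca.

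**Figure D1:**
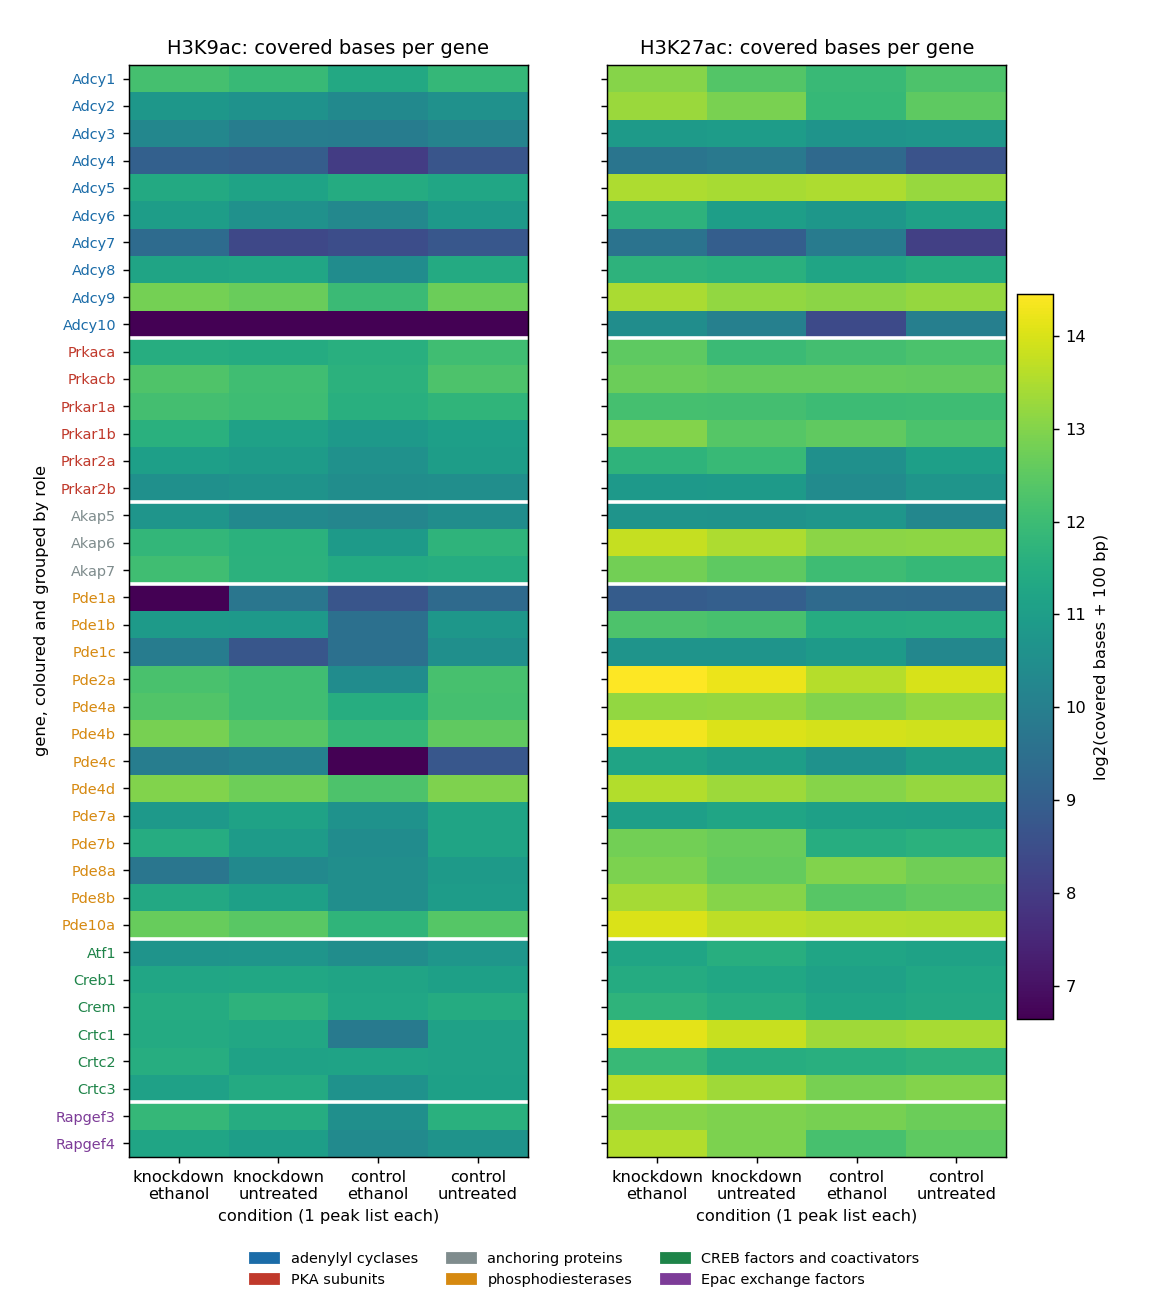
Covered bases of each of the 40 genes (rows, coloured and grouped by role) in each of the 8 peak lists (columns, 4 per mark), as log2 of the covered bases with 100 bp added. Adcy10 has no H3K9ac in any list. The control vector with ethanol, the smallest H3K9ac list, is the darkest H3K9ac column for most genes of every role.

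Ethanol against no treatment in the control vector compares injected mice with mice for which the labels name no saline injection. Ethanol and the injection cannot be told apart. In this comparison, H3K9ac covered 69010 bp of the members' loci with ethanol and 102208 bp untreated. Covered bases were fewer with ethanol in 36 of 39 members and more in 3, Adcy5, Creb1 and Crtc2, which is 7.69% with more (95% Wilson interval 2.65 to 20.3%) against 12.2% of all genes. All 39 passed the filter, and 17 were called lower (43.6%, against 31.2 percent of all genes tested), and none was called higher, against 1.04 percent of all genes. The median log2 change was -0.49 in the members and -0.38 in all genes. All genes are not matched to the members, which are longer and more covered. Among genes passing the filter, the untreated median was 2109 bp in the members and 1503 bp in all genes. The part of length and coverage in the excess of calls was not tested.

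The list of ethanol-treated control mice was itself smaller, with 31042 peaks over 16.1 Mb against 38235 peaks over 22.6 Mb untreated, a log2 ratio of -0.49 in covered bases. Relative to that shift, 17 of 39 members (43.6%) had more covered bases with ethanol, against 56.9% of all genes, 5 were called lower (12.8%, all genes 11.9%) and 2 higher (5.13%, all genes 6.06%). The 5 were Crtc1, Pde1b, Pde2a, Pde4c and Rapgef3, and the 2 were Adcy5 and Creb1.

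The phosphodiesterases gave most of the calls. All 13 had fewer H3K9ac-covered bases with ethanol in the control vector, against 12582 of 14335 of all genes. Of the 13, 10 were called lower, against 31.2 percent of all genes tested. Relative to the smaller list, 12 of the 13 still had fewer, Pde8a being the exception, and 3 were called lower, and 5 of 6 PKA subunits and 4 of 6 CREB genes then had more. Whether the roles differ was not tested. Pde2a, whose product is stimulated by cyclic GMP and hydrolyses cyclic AMP, had 1294 bp with ethanol and 4537 bp untreated in the control vector. In the knockdown it had 4642 bp with ethanol and 4187 bp untreated, so that 3 of its 4 lists were alike and the ethanol list of the control vector was low. Its difference of -3243 bp in the control vector (-1.73 on the log2 scale) was the largest loss among the members called.

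Pde4d, a cyclic AMP-specific enzyme of the rolipram-sensitive family, had 4799 bp with ethanol and 7809 bp untreated in the control vector, and 7940 bp with ethanol and 6748 bp untreated in the knockdown. None of these bases lay within 1 kb of its 1 annotated start, chr13:108654177, on the forward strand. Pde4b, of the same family, had 3561 bp with ethanol and 5936 bp untreated in the control vector, and 7253 bp with ethanol and 5225 bp untreated in the knockdown. Pde10a, an enzyme abundant in striatal neurons, had 3351 bp with ethanol and 5258 bp untreated in the control vector, and 6222 bp with ethanol and 5504 bp untreated in the knockdown.

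Pde1b, a calcium-dependent enzyme, had 644 bp with ethanol and 1657 bp untreated in the control vector, and 1812 bp with ethanol and 1726 bp untreated in the knockdown. Most of these bases are shared with its neighbours. Pde4c had no covered base with ethanol and 330 bp untreated in the control vector, and 898 bp with ethanol and 1009 bp untreated in the knockdown. The other called phosphodiesterases were Pde1a, Pde1c, Pde4a and Pde7b, and the 3 not called were Pde7a, Pde8a and Pde8b.

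Among the other roles the calls were fewer. For each role below, the shares over all genes are 31.2 percent called lower and 12582 of 14335 with fewer covered bases. Of the 10 cyclases, 8 had fewer H3K9ac-covered bases with ethanol in the control vector, 1 had more and Adcy10 had none, and 3 were called lower. Adcy9, a widely expressed cyclase, had 3884 bp with ethanol and 6542 bp untreated in the control vector, and 7129 bp with ethanol and 6349 bp untreated in the knockdown. Adcy8, a cyclase stimulated by calcium with calmodulin, had 1303 bp with ethanol and 2625 bp untreated in the control vector, and 2258 bp with ethanol and 2344 bp untreated in the knockdown. Adcy4, the third called, had 164 bp with ethanol and 314 bp untreated in the control vector.

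Adcy1, the other calcium-stimulated cyclase of hippocampal neurons, had 2524 bp with ethanol and 3581 bp untreated in the control vector, a log2 change of -0.49 that was not called. Adcy5, the cyclase most abundant in the striatum, went the other way, with 2670 bp with ethanol and 2354 bp untreated.

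All 6 PKA subunits had fewer H3K9ac-covered bases with ethanol in the control vector, and only the catalytic subunit gene Prkacb was called lower, at 3115 bp with ethanol and 4808 bp untreated. Prkaca had 2955 bp with ethanol and 4138 bp untreated, and Prkar2b, a regulatory subunit, had 1309 bp with ethanol and 1337 bp untreated. Of the 3 anchoring proteins Akap6 was called lower, at 1813 bp with ethanol and 3272 bp untreated. Akap7 was nearly level, at 2653 bp with ethanol and 2724 bp untreated.

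The CREB genes split. Creb1 had 2282 bp with ethanol and 2062 bp untreated in the control vector, Crem had 2380 bp with ethanol and 2695 bp untreated, and Atf1, the third member of the family, had 1307 bp with ethanol and 1600 bp untreated. None of these was called. Crtc1, the coactivator that carries synaptic signals to the nucleus of hippocampal neurons, was called lower, at 835 bp with ethanol and 2130 bp untreated. Its knockdown lists held 2633 bp with ethanol and 2493 bp untreated. Rapgef3 was called lower, at 1366 bp with ethanol and 2994 bp untreated in the control vector, and Rapgef4 was not, at 1234 bp with ethanol and 1504 bp untreated.

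**Figure D2:**
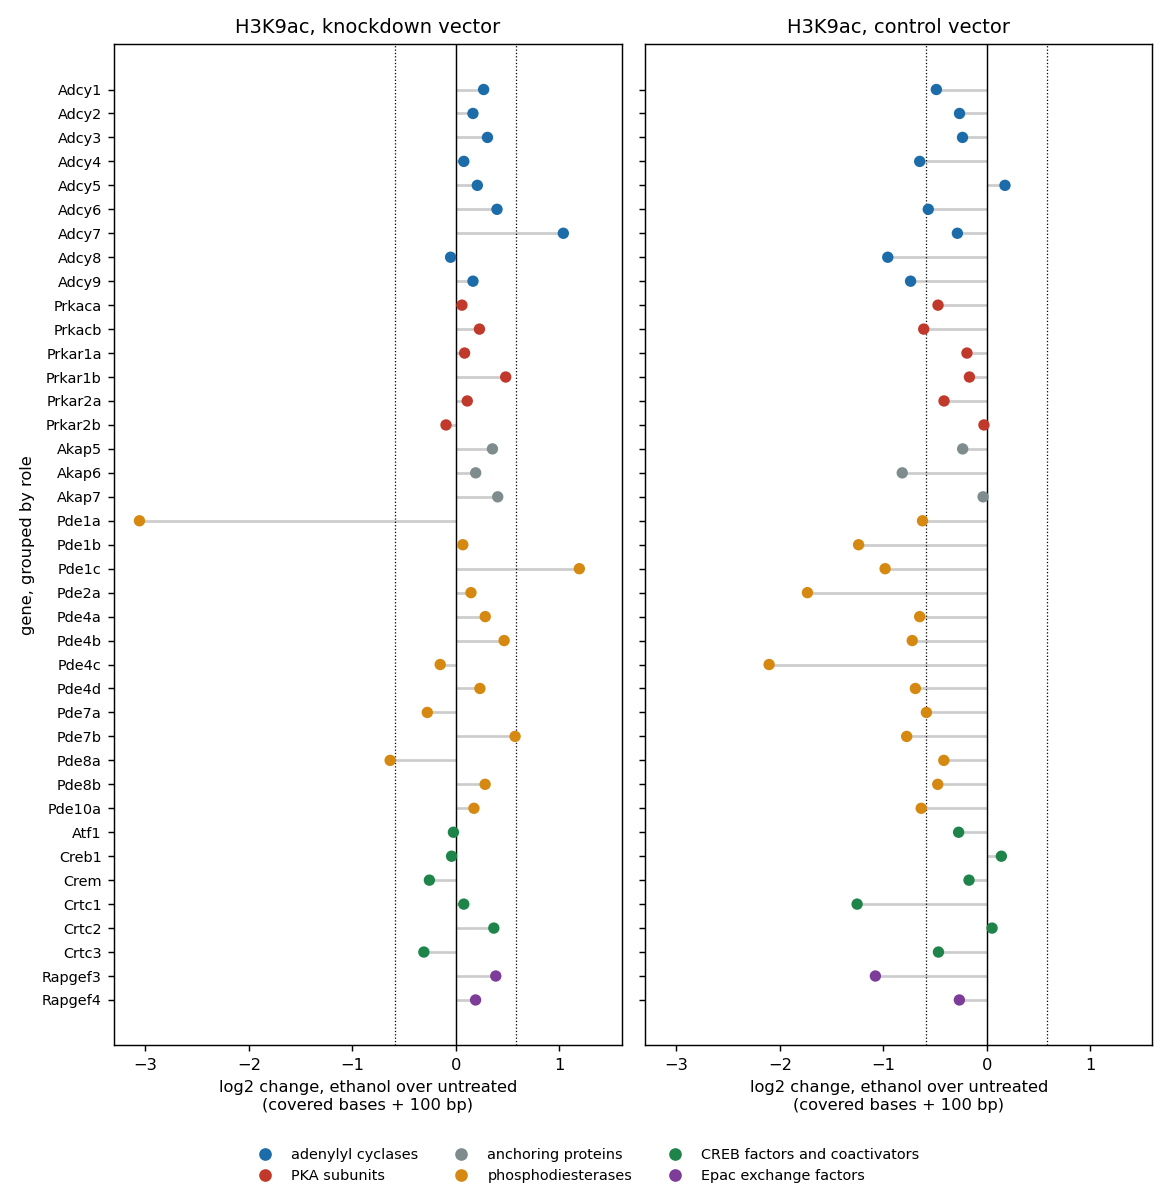
Log2 change in H3K9ac-covered bases, ethanol over untreated, for the 39 genes with H3K9ac (rows, coloured by role), in the knockdown vector (left) and the control vector (right), with the dotted lines at the 1.5-fold rule. In the control vector 36 points lie below 0 and 17 are called lower, and in the knockdown 29 lie above 0 and 4 are called.

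In the knockdown, ethanol against no treatment gave H3K9ac coverage of 112335 bp with ethanol and 98941 bp untreated over the members. Covered bases were more with ethanol in 29 of 39 members and fewer in 10 (74.4% with more, 58.9 to 85.4%, against 63.9% of all genes). Only 2 were called higher (5.13%, against 10.7 percent of all genes) and 2 lower (5.13%, against 3.23 percent of all genes), and the median log2 change was 0.17 in the members and 0.10 in all genes. The list of ethanol-treated knockdown mice held more covered bases, a log2 ratio of 0.15. Relative to it, 23 of 39 members (59.0%) had more, against 44.3% of all genes. Then 2 were called higher (5.13%, all genes 7.30%) and 2 lower (5.13%, all genes 4.95%).

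The 2 called higher were Pde1c, a calcium-dependent phosphodiesterase, at 869 bp with ethanol and 324 bp untreated, and Adcy7 at 561 bp with ethanol and 222 bp untreated. Those called lower were Pde1a, with no covered base with ethanol and 733 bp untreated, and Pde8a, a high-affinity cyclic AMP enzyme, at 745 bp with ethanol and 1213 bp untreated. In the CREB group 4 of 6 genes had fewer covered bases, Crtc3 with 2099 bp with ethanol and 2626 bp untreated among them, while all 3 anchoring proteins and both Epac genes had more. None of these 11 genes was called.

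Putting both vectors together by direction, 27 of 39 members (69.2%) had fewer H3K9ac-covered bases with ethanol in the control vector and more with ethanol in the knockdown, against 53.9% of all genes. Another 9 had fewer in both. For H3K27ac, 21 of 40 members (52.5%) had fewer in the control vector and more in the knockdown, against 40.4% of all genes. The list sizes run in these directions too, at -0.49 in the control vector and 0.15 in the knockdown on the log2 scale for H3K9ac. Relative to list size, 14 of 39 members (35.9%) had this H3K9ac pattern, against 20.6% of all genes, and 11 of 40 (27.5%) had it for H3K27ac, against 17.8% of all genes. The difference between vectors was not tested, since each condition is 1 list.

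Knockdown against control vector in untreated mice showed little change in H3K9ac over the members, at 98941 bp in the knockdown and 102208 bp in the control vector. Covered bases were more with the knockdown in 18 of 39 members and fewer in 21 (46.2% with more, 31.6 to 61.4%, all genes 43.8%), and the median log2 change was -0.04 in the members and -0.04 in all genes. The 1 member called higher (2.56%, against 3.91 percent of all genes) was Pde4c, with 1009 bp in the knockdown and 330 bp in the control vector. The 2 called lower (5.13%, against 8.68 percent of all genes) were Pde1c, with 324 bp in the knockdown and 1371 bp in the control vector, and Prkaca, with 2679 bp in the knockdown and 4138 bp in the control vector.

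Knockdown against control vector under ethanol sets the 2 vectors side by side in ethanol-treated mice. With no untreated list in it, it gives a difference in level and not a response to ethanol. H3K9ac covered 112335 bp of the members in the knockdown and 69010 bp in the control vector, more with the knockdown in 35 of 39 members and fewer in 4 (89.7% with more, 76.4 to 95.9%, all genes 89.9%). Of the 39, 22 were called higher (56.4%, against 35.7 percent of all genes) and 2 lower (5.13%, against 0.991 percent of all genes), with a median log2 change of 0.69 in the members and 0.43 in all genes. This comparison shares its control list with ethanol against no treatment in the control vector, and the same low list enters both. The list totals differed by 0.58 on the log2 scale, and relative to that shift 22 of 39 members (56.4%) had more, against 40.5% of all genes, 5 were called higher (12.8%, all genes 11.1%) and 4 lower (10.3%, all genes 7.19%).

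Among the members called, the largest gains were in Pde4b, with 7253 bp in the knockdown and 3561 bp in the control vector, Pde2a, with 4642 bp in the knockdown and 1294 bp in the control vector, and Adcy9, with 7129 bp in the knockdown and 3884 bp in the control vector. By role, the called-higher genes were 9 of 13 phosphodiesterases, 6 of 10 cyclases, both Epac genes, 2 of 3 anchoring proteins, 2 of 6 PKA subunits and 1 of 6 CREB genes, Crtc1. Relative to list size these became 3 phosphodiesterases (Pde1b, Pde2a and Pde4c), 1 Epac gene (Rapgef3) and 1 CREB gene (Crtc1), with no cyclase, anchoring protein or PKA subunit among them. The 4 then called lower were Adcy5, Prkaca, Pde1a and Pde8a. The 2 called lower without scaling were Pde8a, with 745 bp in the knockdown and 1339 bp in the control vector, and Pde1a, with none in the knockdown and 319 bp in the control vector.

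H3K27ac coverage was larger and differed less with ethanol in the control vector. It covered 191812 bp of the members with ethanol and 202224 bp untreated, with more in 15 of 40 members and fewer in 25 (37.5% with more, 24.2 to 53.0%, all genes 44.9%). The median log2 change was -0.10 in the members and -0.03 in all genes. Of the 40, 3 were called higher (7.50%, against 5.39 percent of all genes) and 2 lower (5.00%, against 6.42 percent of all genes).

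The 3 higher were Pde1c, with 1804 bp with ethanol and 1115 bp untreated, Adcy7, with 849 bp with ethanol and 179 bp untreated, and Adcy4, with 535 bp with ethanol and 302 bp untreated. Of the Adcy7 bases with ethanol, 239 bp lay in a locus shared with Brd7. The 2 lower were Adcy2, a cyclase that G-protein beta and gamma subunits stimulate, with 3674 bp with ethanol and 5730 bp untreated, and Adcy10, with 236 bp with ethanol and 927 bp untreated. The cyclases among these genes split, with 2 higher and 2 lower. Adcy4, Adcy7 and Adcy10 had at most 927 bp in either list, and all bases of Adcy4 lay within loci shared with Ltb4r1 and Ripk3. Pde2a had 12094 bp with ethanol and 16161 bp untreated, which was not called, in 28 peaks with ethanol and 49 untreated.

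In the knockdown, ethanol went with more H3K27ac, at 282993 bp with ethanol and 235858 bp untreated over the members, with more in 32 of 40 members and fewer in 8 (80.0% with more, 65.2 to 89.5%, all genes 75.1%). Of the 40, 5 were called higher (12.5%, against 12.8 percent of all genes) and none lower, against 1.69 percent of all genes. Among those called, the largest gains were in Rapgef4, with 11891 bp with ethanol and 7540 bp untreated, Adcy1, with 8314 bp with ethanol and 5215 bp untreated, and Prkar1b, a neuronal regulatory subunit, with 8077 bp with ethanol and 5240 bp untreated. The list was longer by 0.26 on the log2 scale, and relative to it the direction turned, with 18 of 40 members (45.0%) having more, against 40.2% of all genes. None was then called higher or lower, against 6.19 percent higher and 4.03 percent lower of all genes.

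Knockdown against control vector in untreated mice gave H3K27ac coverage of 235858 bp in the knockdown and 202224 bp in the control vector, with more in 33 of 40 members and fewer in 7 (82.5% with more, 68.1 to 91.3%, all genes 71.0%). Of the 40, 6 were called higher (15.0%, against 12.2 percent of all genes) and none lower, against 2.23 percent of all genes. Among those called, the largest gains were in Pde7b, a cyclic AMP-specific enzyme of brain, with 6440 bp in the knockdown and 3061 bp in the control vector, Akap7, with 5740 bp in the knockdown and 3683 bp in the control vector, and Pde1b, with 4531 bp in the knockdown and 2811 bp in the control vector. Relative to a list longer by 0.25 on the log2 scale, the direction turned here too, with 16 of 40 members (40%) having more, against 38.5% of all genes. Then 4 were called higher (10%, against 6.37 percent of all genes), namely Adcy4, Adcy7, Pde7b and Prkar2a, and none lower, against 4.78 percent of all genes.

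Knockdown against control vector under ethanol gave H3K27ac coverage of 282993 bp in the knockdown and 191812 bp in the control vector, with more in 32 of 40 members and fewer in 8 (80.0% with more, 65.2 to 89.5%, all genes 86.3%). Of the 40, 14 were called higher (35%, against 29.7 percent of all genes) and none lower, against 1.11 percent of all genes, and the median log2 change was 0.44 in the members and 0.35 in all genes. Among those called, the largest gains were in Pde2a, with 22210 bp in the knockdown and 12094 bp in the control vector, Crtc1, with 17790 bp in the knockdown and 10241 bp in the control vector, and Rapgef4, with 11891 bp in the knockdown and 4495 bp in the control vector. Relative to a list longer by 0.59 on the log2 scale, 14 of 40 members (35%) had more, against 32.6% of all genes. Then 4 were called higher (10%, against 9.21 percent of all genes), namely Adcy2, Adcy10, Pde7b and Rapgef4, and 6 lower (15%, against 10.5 percent of all genes), namely Adcy5, Adcy7, Akap5, Pde1a, Pde1c and Pde8a.

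**Figure D3:**
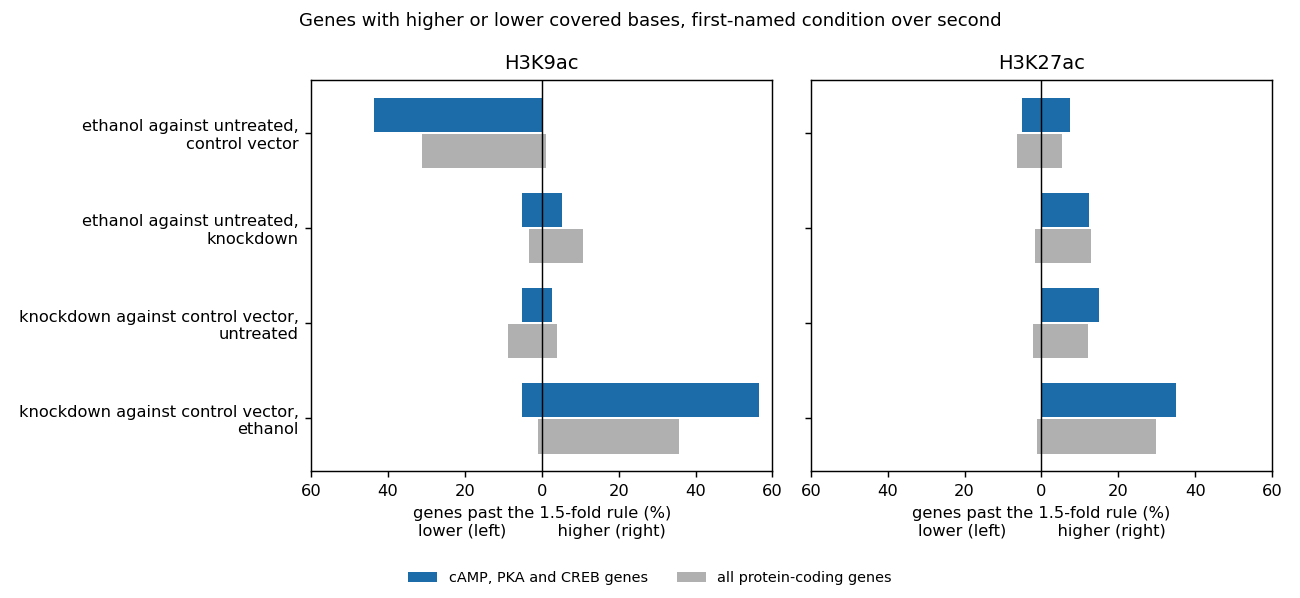
Percent of genes called lower (left of 0) and higher (right of 0) by the 1.5-fold rule in each of 4 comparisons per mark, for the 40 pathway genes (blue) and all protein-coding genes (grey), the first-named condition over the second. For H3K9ac, 43.6% of members against 31.2% of all genes are called lower with ethanol in the control vector. With the knockdown under ethanol, 56.4% against 35.7% are called higher. All genes are not matched to the members in length or coverage.

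The H3K9ac difference with ethanol in the control vector was larger away from the annotated starts than near them. The annotated starts leave out the beginning of some genes, so the rest of a locus can hold promoters. Adcy9, on the reverse strand, runs to chr16:4437236, but its 1 annotated start is at 4420498. Pde10a, on the forward strand, begins at chr17:8525187, but its first annotated start is at 8801745. For the 35 members with annotated starts, the bases within 1 kb of a start summed to 37279 bp with ethanol and 47590 bp untreated, which decreased by 21.7% (all genes, decreased by 18.3%). The rest of the loci summed to 23243 bp with ethanol and 43187 bp untreated, which decreased by 46.2% (all genes, decreased by 41.7%). Called lower were 5 of 30 members near starts, against 19.5 percent of all genes, and 19 of 29 in the rest, against 55.3 percent of all genes.

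Adcy9 shows the pattern, with 1234 bp with ethanol and 1404 bp untreated near its annotated start. In the rest, which includes the beginning of the gene, it had 2650 bp with ethanol and 5138 bp untreated. Pde10a had 1990 bp with ethanol and 1806 bp untreated near its annotated starts. In the rest, which again includes the beginning of the gene, it had 1361 bp with ethanol and 3452 bp untreated. Crtc1 had 835 bp with ethanol and 940 bp untreated near its start, and none with ethanol and 1190 bp untreated in the rest. Most of the bases that Pde2a lost lay near starts, at 991 bp with ethanol and 2978 bp untreated. In proportion the rest of Pde2a fell further, at 303 bp with ethanol and 1559 bp untreated. Pde4b differed and fell further near starts, at 1039 bp with ethanol and 2780 bp untreated. In the rest Pde4b had 2522 bp with ethanol and 3156 bp untreated. Creb1 was level near its start, at 1455 bp with ethanol and 1436 bp untreated.

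Under ethanol, knockdown against control vector gave the mirror of this for H3K9ac, with 50590 bp in the knockdown and 37279 bp in the control vector near starts, 35.7% more (all genes 25.4% more), and 50294 bp in the knockdown and 23243 bp in the control vector in the rest, 116% more (all genes 87.7% more). The control list is the same low one. For H3K27ac the same comparison gave 15.5% more near starts (all genes 14.3%) and 62.2% more in the rest (all genes 65.0%).

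**Figure D4:**
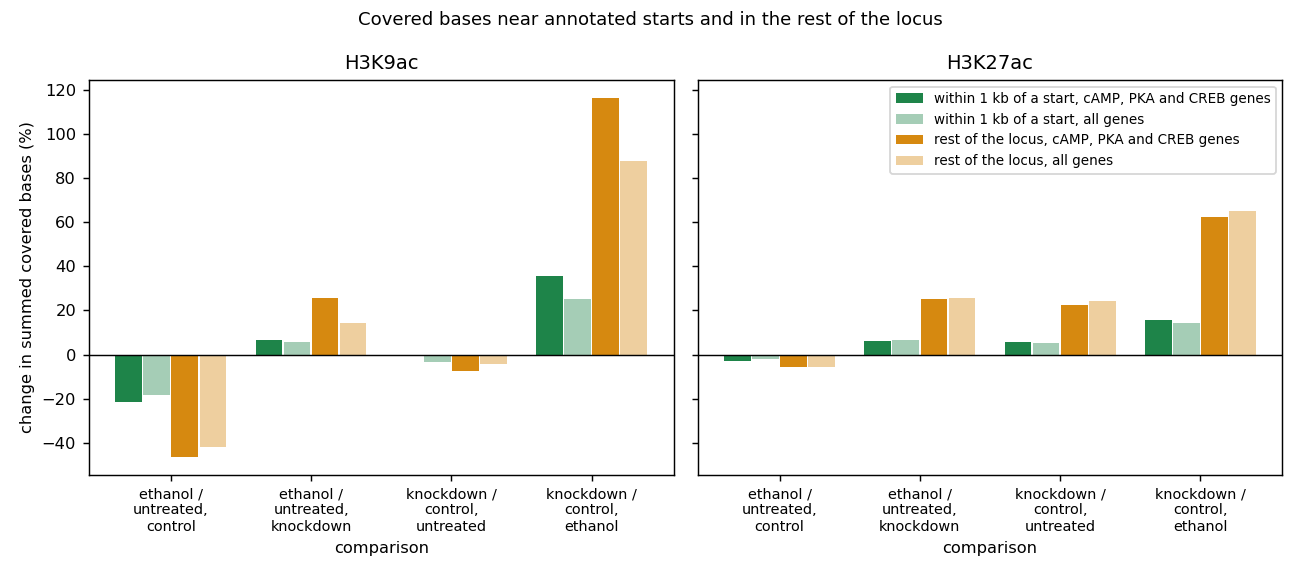
Percent change in summed covered bases within 1 kb of annotated starts (green) and in the rest of the locus (orange), for 35 pathway genes (dark) and all genes with a start (pale), in 4 comparisons per mark. For H3K9ac with ethanol in the control vector the rest of the locus is at -46.2% and the starts at -21.7%.

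Alternative starts of 1 gene differed in the size of the change. Of the 4 annotated starts of Pde4b, the printed one had the drop given above, the first had 286 bp with ethanol and 745 bp untreated in the control vector, the second had 359 bp with ethanol and 456 bp untreated, and the third had no H3K9ac in any list. Prkacb kept 1661 bp with ethanol and 1762 bp untreated around its most upstream start, and had 965 bp with ethanol and 1499 bp untreated around the most downstream of 3. Pde8b had 277 bp with ethanol and 298 bp untreated around its upstream start, where the knockdown lists held 939 bp with ethanol and 681 bp untreated. Around its most downstream start it had 1003 bp with ethanol and 1155 bp untreated in the control vector, and 1174 bp with ethanol and 954 bp untreated in the knockdown.

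Peaks of the 4 lists of a mark were merged into regions to ask which places recur. H3K9ac gave 231 regions in the members' loci, of which 87 (37.7%, Wilson interval 31.7 to 44.1%) were in all 4 lists, against 39.3% of the regions of all genes. The 87 had a median width of 1008 bp and the 95 in a single list 187 bp. H3K27ac gave 868 regions, of which 196 (22.6%, 19.9 to 25.5%) were in all 4 lists, against 28.8% for all genes, with a median width of 901.5 bp against 175 bp for the 412 in a single list. The members are longer, with a median of 92.2 kb against 17.2 kb for all genes, and the part of length in these shares was not tested. Of those 412, 175 were in the list of ethanol-treated knockdown mice, the longest of the 4.

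The regions were spread unevenly over the genes. Pde4b had 78 H3K27ac regions, of which 13 were in all 4 lists, Pde10a had 60 with 10 in all, Akap6 had 57 with 9 in all, Pde2a had 56 with 10 in all, Adcy5 had 52 with 10 in all and Adcy2 had 50 with 5 in all. Adcy9 had 5 H3K9ac regions, the widest of which spanned 7273 bp. Creb1, Crem and Atf1 each had 3 H3K9ac regions and all 3 were in every list.

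**Figure D5:**
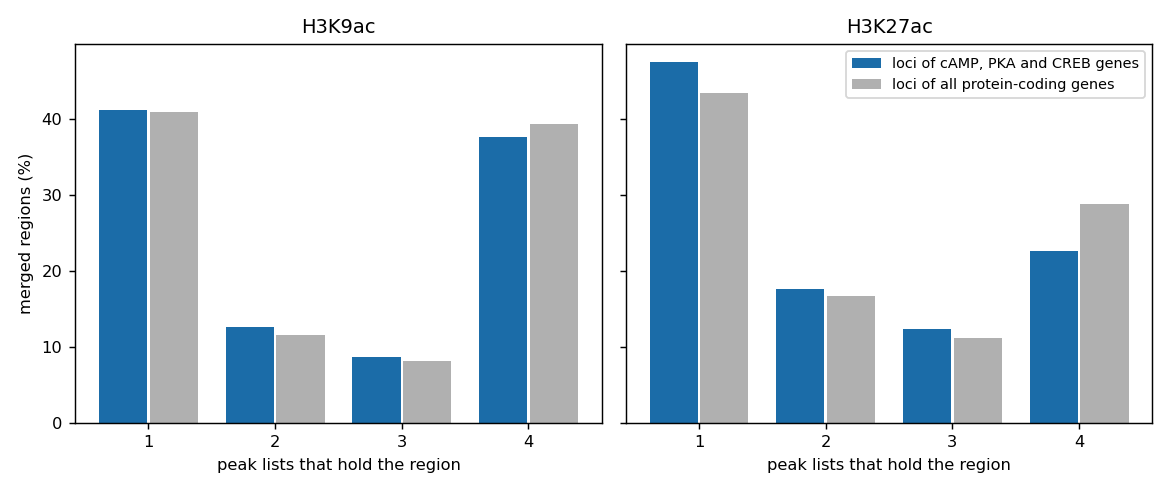
Percent of merged regions held by 1, 2, 3 or 4 of the peak lists of a mark, in the loci of the 40 pathway genes (blue) and of all protein-coding genes (grey). Regions in all 4 lists make up 37.7% against 39.3% for H3K9ac and 22.6% against 28.8% for H3K27ac. The genes compared are not matched in length or coverage.

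A further 30 genes of the pathway were counted (G-protein subunits, PKA inhibitors, other anchoring proteins, phosphodiesterases and CREB partners), without scaling by list size. With ethanol in the control vector, 25 of the 30 had fewer H3K9ac-covered bases, against 12582 of 14335 of all genes. Called lower were 11 (36.7%, against 31.2 percent of all genes), with Gnao1, a G-protein alpha subunit of neurons, at 5029 bp with ethanol and 9001 bp untreated. All 3 PKA inhibitor genes were among the 11, with log2 changes of -0.88 in Pkia, -0.90 in Pkib and -1.10 in Pkig. The list totals themselves differed by a log2 ratio of -0.49. In the knockdown, 3 of the 30 were called higher with ethanol (10%, against 10.7 percent of all genes), with Pde11a at 1445 bp with ethanol and 584 bp untreated, and none lower. In untreated mice 2 were called higher with the knockdown (6.67%, against 3.91 percent of all genes), with Akap10 at 2203 bp in the knockdown and 1134 bp in the control vector, and 1 lower (3.33%, against 8.68 percent), Akap12, at 960 bp in the knockdown and 1613 bp in the control vector. Under ethanol 12 of 30 were called higher with the knockdown (40%, against 35.7 percent of all genes), with Gnao1 at 10082 bp in the knockdown and 5029 bp in the control vector, and none lower.

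For H3K27ac, 3 of these 30 were called higher with ethanol in the control vector (10%, against 5.39 percent of all genes), with Creb5 at 4877 bp with ethanol and 2949 bp untreated, and 3 in the knockdown (10%, against 12.8 percent), with Akap13 at 3341 bp with ethanol and 1644 bp untreated. With the knockdown, 2 were called higher in untreated mice (6.67%, against 12.2 percent of all genes), with Pde11a at 3143 bp in the knockdown and 1989 bp in the control vector. Under ethanol 6 were called higher (20%, against 29.7 percent of all genes), with Rapgef2, another exchange factor for Rap, at 26255 bp in the knockdown and 14315 bp in the control vector, and 1 lower (3.33%, against 1.11 percent), Creb5, at 2858 bp in the knockdown and 4877 bp in the control vector.

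Over the series, the lists held 31042 to 42120 peaks for H3K9ac and 86110 to 119317 for H3K27ac, and a peak lay in the locus of 61.7 to 65.4% of all genes for H3K9ac and 68.2 to 71.0% for H3K27ac. The tissue was checked by peaks within 2 kb of either end of marker genes. Of 5 markers of excitatory neurons 4 or 5 had such a peak in each list, and of 5 genes of other tissues none had one in 7 lists and 1 did in the eighth. Striatal markers had a peak in 2 to 4 of 5, Drd2 in none. Inhibitory markers had one in 2 or 3 of 5, Slc32a1 and Sst in none. The range was 2 to 4 of 5 for astrocyte, 2 to 5 for oligodendrocyte, 0 to 3 for microglial, and 1 to 3 for endothelial and mural markers.

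Cell type markers differed between the lists as well, not always in the members' direction. The summed H3K9ac bases of the 5 excitatory markers were 5084 bp with ethanol and 8117 bp untreated in the control vector, with Neurod6 at 0 with ethanol, and 12463 bp with ethanol and 8878 bp untreated in the knockdown. The 5 astrocyte markers summed to 1476 bp with ethanol and 3564 bp untreated in the control vector, and 3626 bp with ethanol and 3877 bp untreated in the knockdown. The 5 oligodendrocyte markers summed to 2691 bp with ethanol and 4536 bp untreated in the control vector, and 3786 bp with ethanol and 1912 bp untreated in the knockdown. The 5 microglial markers had no H3K9ac in 3 of the 4 lists. For H3K27ac, the excitatory markers summed to 13538 bp with ethanol and 16004 bp untreated in the control vector, and 19298 bp with ethanol and 17187 bp untreated in the knockdown. The astrocyte markers summed to 5255 bp with ethanol and 4480 bp untreated in the control vector, and 7305 bp with ethanol and 5371 bp untreated in the knockdown. The oligodendrocyte markers summed to 9615 bp with ethanol and 7539 bp untreated in the control vector, and 7210 bp with ethanol and 7181 bp untreated in the knockdown. The part of cell composition and of list size in the members' differences was not tested.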

How the data were processed

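H3K9ac, H3K27ac and input chromatin were sequenced from mouse dorsal hippocampus, 3 replicates in each of 12 groups, and samples were grouped by their labels. The authors deposited peak lists, 1 per mark and condition, shared by the labels of all 3 replicates. The sources used here do not say how replicates were combined. Peak calling set ChIP against input, with a cutoff on the false discovery rate at 0.001, per the labels. MACS2, bedtools, STAR 2.5.2a, bcl2fastq and the build GRCm38 (mm10) appear in the submitters' processing notes, without roles. Each deposited peak has a score, which never fell below 3 and was therefore taken for a −log10 q-value. It is the authors' own and served only to rank and filter peaks. The depth is unknown.

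The members and lists were chosen with earlier results of these data known. Overlapping peaks of a list were merged on chromosomes 1 to 19, X and Y, and covered bases were counted from 2 kb below to 2 kb above each of 21887 RefSeq protein-coding genes (GRCm38.p6). A call needed 1.5-fold with 100 bp added and 200 bp in either list. Calls were made over all genes and read for the 40 members, all of which matched by symbol. With 1 list per condition no test was made. Wilson 95% intervals cover counting error over genes only, and genes are not replicates. Named genes are the 3 called members with the largest gain and the 3 with the largest loss in each comparison, and the most and least covered per kb in each role; further members are given to account for each role. Start windows came from RefSeq promoters (GRCm38.p6). Alternatives were other windows, folds, added bases, filters, scores, list lengths and scaling by list size; a split by starts and the leaving out of overlapping loci were chosen after seeing the data. Counting of bases and calls was tested on simulated data. Python 3.11.15, numpy 2.4.6, pandas 2.3.3 and matplotlib 3.10.9 were used.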

Additional observations from a re-analysis of the deposited data

Results flagged for a closer look

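Pde1c, a calcium-dependent phosphodiesterase, was the only member called in opposite directions with ethanol in the 2 vectors. Its H3K9ac-covered bases were 644 bp with ethanol and 1371 bp untreated in the control vector, a difference of -727 bp, and 869 bp with ethanol and 324 bp untreated in the knockdown, a difference of 545 bp. Relative to list size the change in the control vector was -0.55 on the log2 scale and no longer called, and that in the knockdown was 1.06 and still called, so the opposite calls do not hold under that scaling. The difference between the vectors was not tested, since each condition is 1 list. In the control vector the loss lay outside the windows around its annotated starts, where 0 bp were covered with ethanol and 801 bp untreated, while those windows held 644 bp with ethanol and 570 bp untreated.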

How the results depend on the processing

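No paired analysis was possible because each mark and condition has 1 pooled list, so replicate numbers enter no comparison and no replicate could be left out. Depth and the spread between mice are unknown. Calls under the alternatives other than scaling were counted over the members only. Whether those counts differ from the share over all genes cannot be read from them. Scaling by the covered bases of each list changed most. It turned the H3K27ac share of members with more covered bases to 45.0% for ethanol against untreated in the knockdown, 40% for knockdown against control in untreated mice and 35% for knockdown against control under ethanol. It moved the H3K9ac share to 43.6% for ethanol in the control vector and 56.4% for knockdown under ethanol. Under it, H3K9ac calls with ethanol in the control vector became 2 higher and 5 lower. With knockdown in untreated mice 1 was lower (2.56%, against 7.55 percent of all genes). With knockdown under ethanol 5 were higher and 4 lower. H3K27ac calls became 1 lower with ethanol in the control vector (2.50%, against 5.13 percent of all genes). They became 0 higher with ethanol in the knockdown, and 4 higher and 6 lower with knockdown under ethanol. At 2-fold, H3K9ac calls were 5 lower with ethanol in the control vector, 1 lower with ethanol in the knockdown, 1 lower with knockdown in untreated mice, and 7 higher and 1 lower with knockdown under ethanol; H3K27ac calls were 1 higher and 1 lower, 0 higher, 2 higher and 6 higher in the same order of comparisons. With 500 bp added, H3K9ac calls were 1 higher and 1 lower with ethanol in the knockdown, 1 lower with knockdown in untreated mice and 1 lower with knockdown under ethanol; H3K27ac calls were 1 higher and 1 lower with ethanol in the control vector and 3 higher with ethanol in the knockdown. Using 2 kb on either side of gene ends alone, H3K9ac calls were 9 lower with ethanol in the control vector, 0 lower with ethanol in the knockdown, 2 higher with knockdown in untreated mice, and 14 higher and 1 lower with knockdown under ethanol. H3K27ac calls were 2 higher with ethanol in the knockdown, 2 higher and 1 lower with knockdown in untreated mice (61.1% with more) and 5 higher with knockdown under ethanol. With lists of equal length, H3K9ac calls were 11 lower with ethanol in the control vector and 1 higher in the knockdown, and H3K27ac calls were 2 higher and 1 lower with ethanol in the knockdown and 8 higher with knockdown under ethanol, with a share of 65.0% with more for knockdown in untreated mice. At a score of at least 5, H3K9ac calls were 4 higher with ethanol in the knockdown, 2 higher with knockdown in untreated mice and 1 lower with knockdown under ethanol; H3K27ac calls were 1 lower with ethanol in the control vector and 1 lower with knockdown in untreated mice, and 90.0% of members had more with knockdown under ethanol. Near annotated starts alone the H3K27ac share for knockdown in untreated mice was 67.7%. Regions in all 4 lists made up 24.2% for H3K9ac and 12.2% for H3K27ac when at least 0.5 of the length of a region had to be covered, and 33.4% for H3K27ac when peaks within 500 bp were merged. The other 110 values, and 23 under the alternatives chosen after seeing the data, stayed within 1.5 times the count or inside the Wilson interval. The cause of these differences was not tested.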
